A study of Mus musculus with 96 samples.

Results

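Fibroblast growth factors (FGFs) form a family of small signalling proteins. Most are secreted, bind FGF receptor tyrosine kinases together with heparan sulfate on the cell surface, and switch on the Ras and MAP kinase cascade, which in turn induces its own inhibitors. In the brain they act in patterning, in glial growth and in synapse formation. A branch of the family, Fgf11 to Fgf14, stays inside the cell and binds the tails of voltage-gated sodium channels. The genes described here were the secreted ligands Fgf1, Fgf2, Fgf9, Fgf16, Fgf18 and Fgf22 and the intracellular factors Fgf11, Fgf12, Fgf13 and Fgf14. They are 10 of 18818 genes that could be tied to a transcript cluster (the probe set of 1 gene) with a single symbol, and every one of the 10 had exactly 1 such cluster in each table. Another 12 Fgf genes served as a pathway list.

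Brain RNA was measured in 16 adult male mice, 8 of the inbred strain C57BL/6J (B6) and 8 of the inbred strain NOD/ShiLtJ (NOD), all 14 weeks old. In each strain 4 mice were given clozapine, an antipsychotic, at 4 mg/kg into the peritoneum and 4 were given vehicle, and tissue was taken 3 hours later. From every mouse 1 hemisphere was divided by hand into forebrain and hindbrain, the latter with midbrain, and the other hemisphere was kept intact as "whole brain", all without the cerebellum. All mice of a strain are genetically alike, so each strain difference rests on a single pair of inbred lines. Each of the 48 RNA samples was hybridized to an Affymetrix Mouse Gene 1.1ST array (peg format) and to a 1.0ST array (cartridge format). The 1.1ST values are given unless 1.0ST is named, and the 1.0ST arrays repeat the same RNA, so they are no further mice.

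Levels are log2 intensities after robust multi-array averaging (RMA), and a difference of 1 is a doubling. Differences are given with the standard error (SE) of a limma fit, and a difference was called at a false discovery rate (FDR) below 0.05 over all 28310 transcript clusters. Intensities of different genes depend on their probes, so levels were compared within a gene and only differences between genes. The median intensity of single arrays lay between 6.28 and 6.61 on 1.1ST and between 8.14 and 8.23 on 1.0ST. The dissection showed in the marker genes. All 8 measured telencephalic markers were lower in hindbrain (median difference of the list -1.88) and all 10 brainstem markers were higher (1.27). Oligodendrocyte markers were higher in hindbrain in 8 of 8 genes (median 0.79), endothelial markers in 8 of 8 and meningeal markers in 7 of 8. Astrocyte markers were higher in 7 of 9, while Slc1a2 (-0.35) and Slc1a3 (-0.26) were called as lower. Of the choroid plexus markers 5 of 8 were lower and 1 was higher. Some arrays stood apart. The whole brain array of NOD mouse DD656 had a mean telencephalic level of 7.41 against 7.96 to 8.38 in the other 15 whole brains, and the highest brainstem level. The hindbrain array of B6 mouse BB702 had the highest telencephalic level of the hindbrains on 1.1ST (7.07 against at most 6.66) but the lowest on 1.0ST. In 4 hindbrain arrays, all from clozapine mice (BB701, DD658, DD676 and DD678), cerebellar markers were the highest of the region, and results that rest on them are given without them too.

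The stretches before the transcription start are shown for the members that were higher in hindbrain by at least 0.5 and have an entry in the RefSeq promoter table (build GRCm38.p6), since these genes moved together between regions. Each line gives the 150 bases upstream of the annotated start, 5′ to 3′ on the strand of the gene, in lower case. Capitals mark matches, on either strand, to the GC box GGGCGG, the CCAAT box CCAAT, the TATA box TATAAA or the E box CACGTG, and no match of one motif overlapped a match of another.
Fgf18, chr11:33147401-33147550, minus strand: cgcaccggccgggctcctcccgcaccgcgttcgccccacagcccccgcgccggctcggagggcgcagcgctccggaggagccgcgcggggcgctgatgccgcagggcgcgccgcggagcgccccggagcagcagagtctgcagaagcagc
Fgf11, chr11:69802281-69802430, minus strand: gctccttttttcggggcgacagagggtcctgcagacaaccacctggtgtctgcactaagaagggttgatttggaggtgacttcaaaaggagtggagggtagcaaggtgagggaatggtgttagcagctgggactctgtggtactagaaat
Fgf22, chr10:79754959-79755108, plus strand: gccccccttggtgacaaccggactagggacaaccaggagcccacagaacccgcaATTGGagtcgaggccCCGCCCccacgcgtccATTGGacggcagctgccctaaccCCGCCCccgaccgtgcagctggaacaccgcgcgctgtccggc
Fgf9, chr14:58072536-58072685, plus strand: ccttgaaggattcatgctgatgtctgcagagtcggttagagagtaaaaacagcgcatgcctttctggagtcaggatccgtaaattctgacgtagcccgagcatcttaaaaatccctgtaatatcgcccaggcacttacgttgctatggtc

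The windows had little in common. The Fgf18 window had a GC content of 80.7% and that of Fgf22 70%, against 52% for Fgf11, 47.3% for Fgf9 and a median of 54% over all 32851 windows given by RefSeq. Fgf22 held 2 GC boxes and 2 CCAAT boxes, and the windows of the other 3 genes held none of the 4 motifs. Of all these windows 28.6% held a GC box, 24.5% a CCAAT box, 7.57% a TATA box and 4.3% that E box. A match is only a run of letters, and its absence says nothing of the factor.

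The first comparison asked where in the brain each factor was expressed. Between hindbrain and forebrain 6 members were higher (Fgf1, Fgf18, Fgf11, Fgf22, Fgf9, Fgf2) and 4 were lower (Fgf16, Fgf13, Fgf12, Fgf14) in hindbrain. The changes ran from a 2.48-fold higher level of Fgf1 to a 1.76-fold lower level of Fgf16. All 10 members passed the FDR, but so did 65.7% of all transcripts, 33.1% as higher and 32.5% as lower, so passing alone sets no member apart. The call is also loose here. While 18590 transcripts were called, 16584 had an unadjusted limma p below 0.05, and all 10 members were among the latter. With every array centred on its own median the split over all transcripts turned from 9382 higher and 9208 lower to 7505 and 15742, and no member changed direction. A called difference of at least 0.5 was found for 7 of 10 members (3 of 10 on 1.0ST) and for 10.7% of all transcripts. The members were picked with such results known, and the study had named Fgf1, Fgf16, Fgf18 and Fgf22 for their region differences on these same samples, so the counts are a description. On 1.0ST, where 77.1% of transcripts passed, all 10 members were called in the same directions. In bulk tissue, fewer cells of a type and less RNA per cell cannot be told apart.

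**Figure D1:**
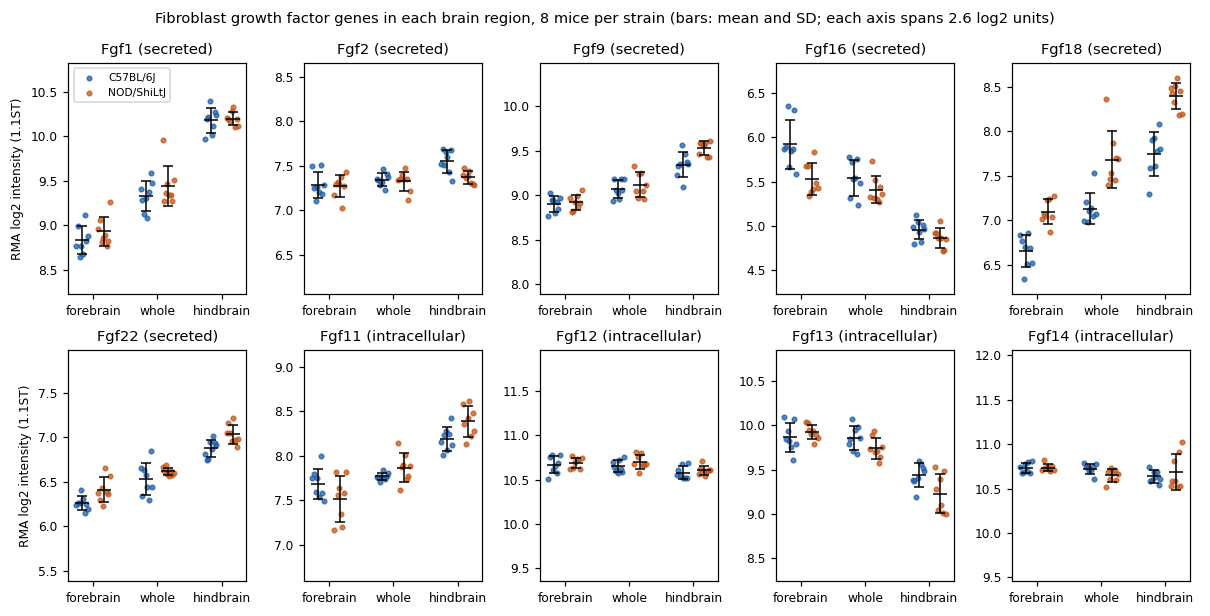
RMA log2 intensity (1.1ST) of each member in forebrain, whole brain and hindbrain, with 1 point per mouse (blue C57BL/6J, orange NOD/ShiLtJ, 8 mice each) and bars for the mean and SD; every vertical axis spans the same range, so heights can be compared as differences. Fgf1, Fgf18, Fgf11, Fgf22 and Fgf9 climb from forebrain to hindbrain, Fgf16 and Fgf13 descend, and Fgf12 and Fgf14 stay nearly level.

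Fgf1, the acidic FGF, which binds every type of FGF receptor and leaves cells without a classical signal peptide, had the largest difference of the members. Its level in forebrain ran from 8.65 to 9.26 (median 8.84, 16 mice), in whole brain from 9.09 to 9.97 (median 9.35) and in hindbrain from 9.97 to 10.4 (median 10.2). Every hindbrain lay above every forebrain, and the lowest hindbrain only just exceeded the whole brain of mouse DD656. The difference was 1.31 ± 0.05 (SE, FDR 1.21e-25) and had the same direction in 16 of 16 mice. It was 1.35 in B6 and 1.27 in NOD, and neighbouring groups of the same region did not differ beyond their SD. The genes whose centred values over the 48 arrays came closest to those of Fgf1 were Pygm (root mean square difference 0.117), Mag (0.137) and Rbms3 (0.137), out of 18817 genes compared. Pygm encodes the muscle form of glycogen phosphorylase, and Mag is a myelin protein that was among the oligodendrocyte markers. The root mean square of Fgf1 about its own mean was 0.562.

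Fgf18, a ligand of the Fgf8 subfamily best known from bone and lung development, came next. In forebrain its level ran from 6.34 to 7.27 (median 6.86), in whole brain from 6.98 to 8.37 (median 7.42) and in hindbrain from 7.30 to 8.60 (median 8.13). Hindbrains and forebrains did not overlap, while whole brains overlapped with both. The difference between hindbrain and forebrain was 1.20 ± 0.07 (FDR 1.54e-20), upward in 16 of 16 mice, and 0.81 ± 0.05 on 1.0ST. Closest in pattern were Asah2 (0.188), Tmem117 (0.194) and A930017M01Rik (0.203), against a root mean square of 0.598 for Fgf18 itself.

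Fgf22 and Fgf9 rose by less. Fgf22, which is released at synapses and promotes the formation of presynaptic endings, ran from 6.15 to 6.65 in forebrain and from 6.75 to 7.21 in hindbrain, without overlap. The medians of the forebrain arrays ran from 6.28 to 6.52, so Fgf22 lay near the array median there. Its difference was 0.62 ± 0.04 (FDR 6.49e-19, 16 of 16 mice), and 0.32 ± 0.03 on 1.0ST, where the ranges overlapped. Fgf9, a growth factor for glia that neurons make, ran from 8.77 to 9.06 in forebrain and from 9.10 to 9.61 in hindbrain, again without overlap. Its difference was 0.53 ± 0.04 (FDR 1.57e-17, 16 of 16 mice) on 1.1ST and 0.43 ± 0.04 on 1.0ST. Fgfr3, an FGF receptor, was among the 3 genes closest to Fgf22 (root mean square difference 0.121), with Dzank1 (0.120) and Plekhb1 (0.122). The root mean square of Fgf22 about its own mean was 0.286. On 1.0ST these 3 genes came less close to Fgf22 (0.166 for Fgfr3, 0.161 for Dzank1 and 0.153 for Plekhb1). There Fgfr3 was higher in hindbrain by 0.55, against 0.32 for Fgf22. Closest to Fgf9 were Gclm (0.0921), Nkrf (0.0958) and Phyh (0.0984).

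Fgf2, the basic FGF, differed little between regions. It ran from 7.02 to 7.51 in forebrain and from 7.29 to 7.69 in hindbrain, and the ranges overlapped. The difference was 0.18 ± 0.04 (FDR 3.35e-05, 14 of 16 mice). In B6 alone it was 0.26 ± 0.06 and in NOD alone 0.10 ± 0.06, which was not called (FDR 0.0684 with the NOD arrays fitted by themselves). The Fgf2 gene overlaps antisense genes, among them Nudt6, and their signals were not separated here.

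Fgf16, a ligand of the Fgf9 subfamily known from the heart and brown fat, was the only secreted member that was lower in hindbrain. Forebrains ran from 5.33 to 6.35 (median 5.67), whole brains from 5.23 to 5.77 (median 5.46) and hindbrains from 4.72 to 5.12 (median 4.92). Every hindbrain lay below every forebrain and every whole brain. On 1.0ST hindbrains (6.59 to 6.98) overlapped whole brains (6.75 to 7.39). The difference between hindbrain and forebrain was -0.81 ± 0.06 (FDR 7.11e-17, 16 of 16 mice) on 1.1ST and -0.46 ± 0.05 on 1.0ST. On 1.1ST all whole brain and hindbrain levels lay below the lowest array median (6.28), as did all NOD forebrains (at most 5.83). B6 forebrains had a median of 5.87 and reached 6.35. On 1.0ST every Fgf16 level (at most 7.59) lay below the lowest array median (8.14). Closest in pattern were Cpne4 (0.173), Ppp1r12b (0.173) and Mpped2 (0.192).

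The intracellular factors split. Fgf11 rose from a forebrain range of 7.16 to 8.00 to a hindbrain range of 8.00 to 8.62. The groups met without overlapping, and the difference was 0.69 ± 0.06 (FDR 4.17e-15, 16 of 16 mice). On 1.0ST it was 0.58, and forebrains (up to 9.20) and hindbrains (from 9.14) overlapped. Fgf13, which also binds microtubules in developing neurons, fell from a forebrain range of 9.61 to 10.1 to a hindbrain range of 9.00 to 9.60. Its difference was -0.56 ± 0.05 (FDR 8.94e-15), downward in 16 of 16 mice and without overlap. Fgf12 and Fgf14 changed least, with differences of -0.09 ± 0.03 (FDR 0.00199, 13 of 16 mice) and -0.07 ± 0.03 (FDR 0.0179, 12 of 16 mice) and overlapping ranges. The Fgf14 difference was not called after Benjamini-Hochberg adjustment (0.061) or with the NOD arrays fitted by themselves (-0.05, FDR 0.227). It was larger without the 4 hindbrain arrays rich in cerebellar markers (-0.14, FDR 2.78e-06), which include the 3 highest Fgf14 levels, and in vehicle mice alone (-0.16). Closest to Fgf11 were Aldh9a1 (0.137), Wscd1 (0.142) and Slc25a39 (0.145), and closest to Fgf13 were Efna3 (0.115), Mllt1 (0.115) and Src (0.124).

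Set side by side, 5 of 6 secreted ligands were higher and 1 was lower in hindbrain, with a median difference of 0.57. Of the intracellular factors 1 of 4 was higher and 3 were lower, with a median of -0.08. The median over all transcripts was -0.01 and the median absolute difference 0.117, against 0.716 for the secreted and 0.323 for the intracellular members. With 10 chosen genes this was not tested. The other 12 Fgf genes, all outside the Fgf11 to Fgf14 branch, went both ways, from Fgf7 (0.74) to Fgf5 (-0.71). With centred arrays 2 of these 12 were called as higher and 8 as lower. The lean toward hindbrain is therefore stated for the 6 chosen ligands only.

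**Figure D2:**
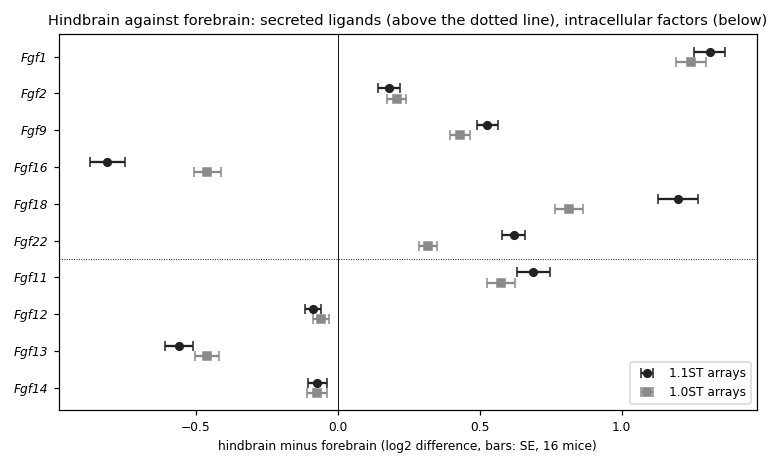
Difference between hindbrain and forebrain in log2 units for each member, with bars for the SE over 16 mice (black circles 1.1ST, grey squares 1.0ST); secreted ligands stand above the dotted line and intracellular factors below. The direction is the same in both formats for all 10 members, and Fgf16, Fgf18 and Fgf22 show the largest gaps between formats, with the 1.0ST value nearer to 0.

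The intact hemisphere asked how far a whole brain sample shows such differences. Between whole brain and forebrain 6 members were called, against 20% of all transcripts: Fgf18 (0.53 ± 0.07), Fgf1 (0.50 ± 0.05), Fgf22 (0.24 ± 0.04), Fgf11 (0.22 ± 0.06), Fgf9 (0.19 ± 0.04) and Fgf16 (-0.25 ± 0.06). Each moved the way it moved in hindbrain. Fgf13 did not pass (-0.09 ± 0.05, FDR 0.112), nor did Fgf2, Fgf12 and Fgf14. With centred arrays Fgf13 (-0.13, FDR 0.0155) and Fgf14 (-0.09, FDR 0.0323) were called, and on 1.0ST Fgf2 was (0.12, FDR 0.00658). Fgf11 was lost with surrogate variables (FDR 0.141) and in vehicle mice (FDR 0.0553). On the way from forebrain to hindbrain the whole brain stood at 44.5% for Fgf18, 38.6% for Fgf1, 38.3% for Fgf22, 35.3% for Fgf9, 31.4% for Fgf11, 30.7% for Fgf16 and 16.9% for Fgf13. These are ratios of log2 differences that share the forebrain arrays, and they are no shares of tissue. With each strain fitted by itself, the Fgf11 value was not called in B6 (0.08, FDR 0.38) and the Fgf16 value not in NOD (-0.12, FDR 0.262). Between hindbrain and whole brain 9 members were called, all but Fgf14 (-0.03 ± 0.03, FDR 0.258), against 47.4% of all transcripts. Without the 4 hindbrain arrays rich in cerebellar markers Fgf14 was called as lower (-0.09, FDR 0.00125), as it was in vehicle mice (-0.10, FDR 0.0188) and in B6 alone (-0.09, FDR 0.0296). Fgf12 was not called in vehicle mice (FDR 0.0902) or in B6 alone (FDR 0.119), and Fgf2 not in NOD alone (FDR 0.333).

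The partners of the ligands showed a split. Of the receptors, Fgfr2 (0.66 ± 0.04), Fgfr3 (0.59 ± 0.04) and Fgfr1 (0.47 ± 0.04) were higher in hindbrain, and on 1.0ST by 0.62, 0.55 and 0.47. Fgfr4 (-0.02, FDR 0.216) and the decoy-like receptor Fgfrl1 (0.03, FDR 0.19) did not pass on 1.1ST, while both passed on 1.0ST (-0.19 and 0.08). Kl, the co-receptor Klotho, was lower (-0.84 ± 0.17, FDR 1.38e-05), and choroid plexus is a site of Kl expression. Of 8 choroid plexus markers 5 were lower, such as Ttr (-1.96), while Otx2 was higher (1.56) and the others were not called. The part of choroid plexus tissue in the Kl difference was not tested. The co-receptor Klb was lower by a small amount (-0.08 ± 0.03, FDR 0.0148). Whole brain stood above forebrain for the same 3 receptors, by 0.28 for Fgfr3, 0.25 for Fgfr2 and 0.24 for Fgfr1, and the other 4 genes of the list were not called there.

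Feedback genes and targets of the pathway were mostly lower in hindbrain. Of 16 measured genes 11 were called as lower and 2 as higher, with a list median of -0.37. Over all transcripts 32.5% were called as lower and 33.1% as higher. The adhesion protein gene Flrt2 (-1.01 ± 0.07), the transcription factor gene Etv5 (-0.9997 ± 0.05) and the MAP kinase phosphatase gene Dusp6 (-0.86 ± 0.08) fell most. The 2 higher genes were Spry4 (0.29 ± 0.07) and Spry3 (0.24 ± 0.06), which encode Sprouty inhibitors of receptor signalling. Telencephalic markers fell over the same arrays (8 of 8, median -1.88), and the part of tissue makeup in the list was not tested.

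**Figure D3:**
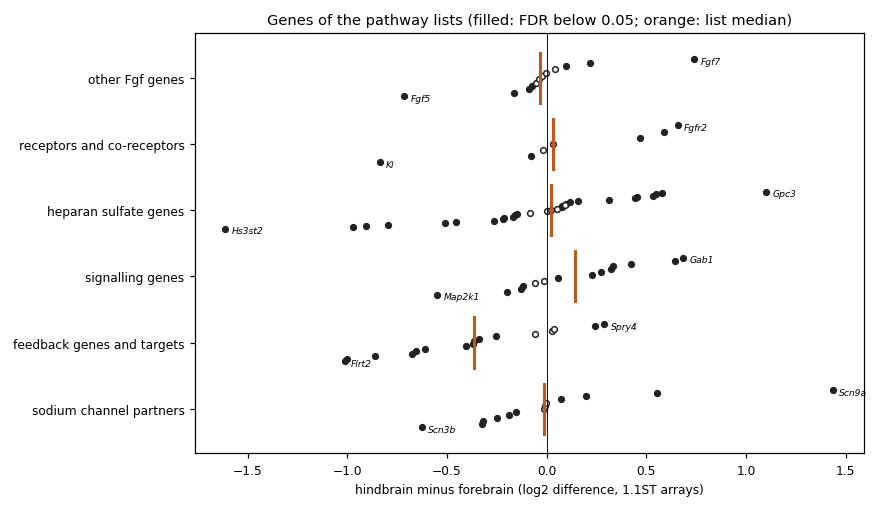
Difference between hindbrain and forebrain in log2 units (1.1ST) for every measured gene of the 6 pathway lists, filled where the FDR was below 0.05, with an orange bar at the list median and the gene at each end named. The feedback genes and targets lie mostly to the left of 0 (median -0.37), while the heparan sulfate genes spread to both sides (12 lower, 12 higher).

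The other pathway lists held genes of both directions. Over all transcripts 65.7% were called in this comparison, 33.1% as higher and 32.5% as lower, so the counts alone set no list apart. Of 29 heparan sulfate genes 12 were higher and 12 lower (8 and 14 with centred arrays), led by the glypican Gpc3 (1.102 ± 0.08), the syndecan Sdc4 (0.58 ± 0.05) and the sulfotransferase Hs6st2 (0.55 ± 0.04) among those higher. The sulfotransferase Hs3st2 (-1.61 ± 0.09), the chain polymerase Ext1 (-0.97 ± 0.05) and the glypican Gpc4 (-0.91 ± 0.06) led those lower. Of 14 signalling genes 8 were higher, led by the docking proteins Gab1 (0.68 ± 0.06) and Frs3 (0.64 ± 0.05) and the adaptor Shc1 (0.42 ± 0.05). The 4 lower ones included the kinases Map2k1 (-0.55 ± 0.04) and Braf (-0.20 ± 0.03) and the adaptor Shc3 (-0.13 ± 0.04). Of 13 sodium channel partners of Fgf11 to Fgf14, the channels Scn9a (1.44 ± 0.09) and Scn1a (0.55 ± 0.04) and the axonal adhesion protein gene Nfasc (0.20 ± 0.06) were the 3 of 4 higher genes with the largest differences. Among the 6 lower ones were the subunit gene Scn3b (-0.63 ± 0.04) and the channels Scn8a (-0.33 ± 0.05) and Scn2a (-0.32 ± 0.04). Of the other 12 Fgf genes 7 were called. The 3 higher were Fgf7 (0.74 ± 0.11), Fgf20 (0.22 ± 0.05) and Fgf23 (0.10 ± 0.05). The 4 lower were headed by Fgf5 (-0.71 ± 0.06), Fgf21 (-0.17 ± 0.05) and Fgf6 (-0.09 ± 0.05, FDR 0.0366). Calls in this comparison reach past an unadjusted limma p of 0.05, so the smallest of these differences are weakly supported. With centred arrays 2 of these 12 were higher and 8 lower, and on 1.0ST 3 were higher and 6 lower, with Fgf23 not called (-0.02, FDR 0.153).

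The strain comparison asked which members differed between NOD and B6 in each region. Fgf18 was the member with a called difference in all 3 regions, higher in NOD each time, and Fgf16 was lower in NOD forebrain. Of 10 members, 2 were called in forebrain (11.7% of all transcripts), 1 in whole brain (10.7%) and 5 in hindbrain (17.2%). Arrays of this kind are designed on the reference genome, and variants between the strains under the probes were not examined here.

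Fgf18 in forebrain ran from 6.34 to 6.86 in the 8 B6 mice (median 6.70) and from 6.87 to 7.27 in the 8 NOD mice (median 7.06). In whole brain the B6 values ran from 6.98 to 7.53 (median 7.09) and the NOD values from 7.40 to 8.37 (median 7.61). In hindbrain they ran from 7.30 to 8.09 in B6 (median 7.79) and from 8.18 to 8.60 in NOD (median 8.45). The strains did not overlap in forebrain or in hindbrain, and in whole brain the highest B6 array crossed the lowest NOD arrays. The differences were 0.45 ± 0.10 (FDR 0.000914), 0.55 ± 0.10 (FDR 4.32e-05) and 0.65 ± 0.10 (FDR 1.52e-06), a fold of 1.36, 1.47 and 1.57. Without the whole brain array of mouse DD656 the whole brain difference was 0.46. On 1.0ST the differences were 0.24, 0.33 and 0.52, all called. The change of the strain difference from forebrain to hindbrain was not called (0.20 ± 0.14, FDR 0.645). Ordered by mean, the groups ran from B6 forebrain (6.65) through NOD forebrain (7.10), B6 whole brain (7.13), NOD whole brain (7.68) and B6 hindbrain (7.75) to NOD hindbrain (8.40). NOD forebrain and B6 whole brain, and NOD whole brain and B6 hindbrain, were closer than their SD.

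Fgf16 in forebrain ran from 5.58 to 6.35 in B6 (median 5.87) and from 5.33 to 5.83 in NOD (median 5.46), with overlap. All NOD levels and the B6 median lay below the lowest array median (6.28), so this strain comparison is between low intensities. The difference was -0.39 ± 0.09 (FDR 0.000753), and -0.22 ± 0.07 (FDR 0.0197) on 1.0ST. In whole brain (-0.13 ± 0.09) and hindbrain (-0.09 ± 0.09) it did not pass, and the change of the strain difference from forebrain to hindbrain was not called (0.30 ± 0.12, FDR 0.313).

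In hindbrain the smaller strain differences were those of Fgf9 (0.19 ± 0.05, FDR 0.00759), Fgf22 (0.16 ± 0.06, FDR 0.0365), Fgf2 (-0.18 ± 0.06, FDR 0.0155) and Fgf13 (-0.21 ± 0.07, FDR 0.0199). All of these overlapped between the strains. On 1.0ST Fgf13 (-0.18, FDR 0.0293) was called again and Fgf9, Fgf22 and Fgf2 were not (FDR 0.481, 0.179 and 0.157). Cerebellar marker levels were unequal here, since 3 of the 4 arrays highest in them were NOD. Without those 4 arrays the Fgf13 difference was -0.10 (FDR 0.401) and the Fgf2 difference -0.12 (FDR 0.234), while Fgf11 rose to 0.32 (FDR 0.0153) from 0.20 (FDR 0.0717). Of the NOD clozapine hindbrains only that of DD675 was then left, so these values rest on fewer mice and treatment was unequal between the strains. Among vehicle mice alone, where Fgf13 differed by 0.028 (FDR 0.764), Fgf18 was the only member called in hindbrain.

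**Figure D4:**
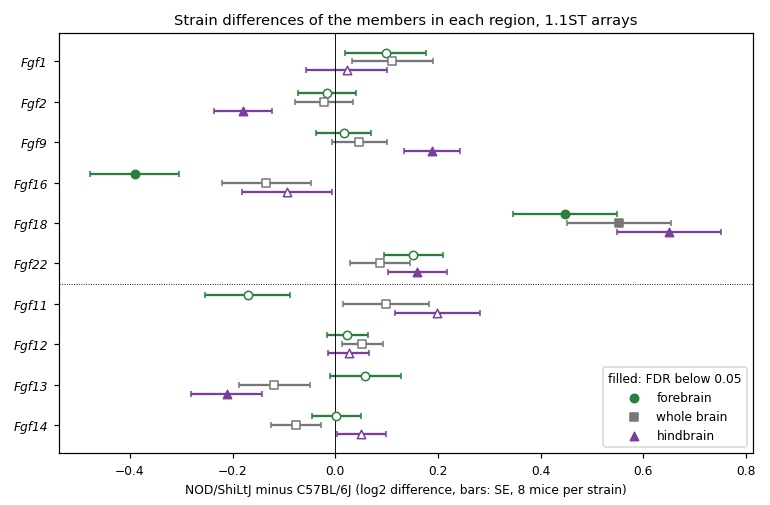
Difference between NOD/ShiLtJ and C57BL/6J in log2 units (1.1ST) for each member in forebrain (green circles), whole brain (grey squares) and hindbrain (purple triangles), with bars for the SE; filled symbols passed the FDR of 0.05. Fgf18 lies right of 0 in all 3 regions (0.45 to 0.65), and the Fgf16 value in forebrain (-0.39) lies farthest to the left.

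The change of the strain difference from region to region was tested as well. Between hindbrain and forebrain 0 of 10 members were called, against 1.11% of all transcripts, with 5 members at an unadjusted p below 0.05. The smallest FDR was that of Fgf11 (0.37 ± 0.12, FDR 0.116), whose difference between hindbrain and forebrain was 0.50 ± 0.08 in B6 and 0.87 ± 0.08 in NOD. It was called without the 4 hindbrain arrays rich in cerebellar markers (0.49, FDR 0.0302), with surrogate variables (0.45, FDR 0.00302) and with principal components of the residuals (0.37, FDR 0.0106). Leaving out those 4 arrays also made treatment unequal between the strains. Between whole brain and forebrain 0 members and 0% of all transcripts were called, with 2 members at an unadjusted p below 0.05.

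The pathway lists were compared between the strains too, where 11.7%, 10.7% and 17.2% of all transcripts were called in forebrain, whole brain and hindbrain. No receptor gene passed in any region, and the smallest FDR was that of Fgfrl1 in hindbrain (0.15 ± 0.07, FDR 0.122). Of the 16 feedback genes and targets 0 were called in forebrain, 2 in whole brain (both lower in NOD) and 5 in hindbrain (4 lower). Of the 29 heparan sulfate genes 1, 3 and 4 were called in these regions, of the 13 sodium channel partners 1, 0 and 2, and of the 14 signalling genes 0, 2 and 1. Among the other 12 Fgf genes the numbers were 1, 1 and 3.

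Clozapine was compared with vehicle 3 hours after injection. Over the 3 regions together 0 of 10 members were called, against 2.23% of all transcripts, with 2 members at an unadjusted p below 0.05: Fgf13 (-0.10 ± 0.04, FDR 0.201) and Fgf14 (0.07 ± 0.03, FDR 0.199). The largest difference of the other 8 members was that of Fgf18 (-0.07 ± 0.06). Of the receptors Fgfrl1, which lacks a kinase domain, was lower after clozapine (-0.16 ± 0.04, FDR 0.0351), but no receptor was called on 1.0ST. Clozapine was given per mouse, yet the fit took the 3 regions of a mouse as almost independent (consensus correlation 0.0388). With 1 mean per mouse the 632 called transcripts (2.23%) became 12. The calls over the 3 regions together, that of Fgfrl1 among them, are therefore weakly supported. In forebrain alone and in whole brain alone 0 members were called, against 0.0106% and 0.0424% of all transcripts. In hindbrain 1 member was called, against 0.604% of all transcripts: Fgf14 was higher after clozapine by 0.18 ± 0.04 (FDR 0.0324).

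Fgf14, which is abundant in the granule and Purkinje cells of the cerebellum, has to be read beside the cerebellar markers. In the hindbrains of vehicle mice it lay between 10.5 and 10.6 (median 10.6, 8 arrays), and in those of clozapine mice between 10.5 and 11.0 (median 10.7). The highest 3 were the NOD clozapine mice DD678 (11.0), DD676 (10.9) and DD658 (10.8). Gabra6, a receptor subunit of cerebellar granule cells, ran from 3.94 to 6.06 in vehicle hindbrains (median 4.41) and from 4.11 to 10.8 in clozapine hindbrains (median 8.24). Its 3 highest arrays were the same 3, at 10.8, 10.4 and 9.90, followed by B6 mouse BB701. The mean over all 9 cerebellar markers ran from 5.85 to 6.33 in vehicle and from 5.98 to 8.01 in clozapine hindbrains. Both formats gave this order for those 3 mice. Without the 4 hindbrain arrays highest in these markers, all 4 from clozapine mice, Fgf14 differed by 0.03. That left 4 clozapine hindbrains, of which only that of DD675 (Fgf14 at 10.5) was NOD. The NOD part of this value thus rests on 1 array, and no calls are given for it. Remnants of cerebellum and the drug cannot be told apart in the 4 arrays left out. Fgf13 ran from 9.00 to 9.60 in clozapine and from 9.19 to 9.53 in vehicle hindbrains.

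**Figure D5:**
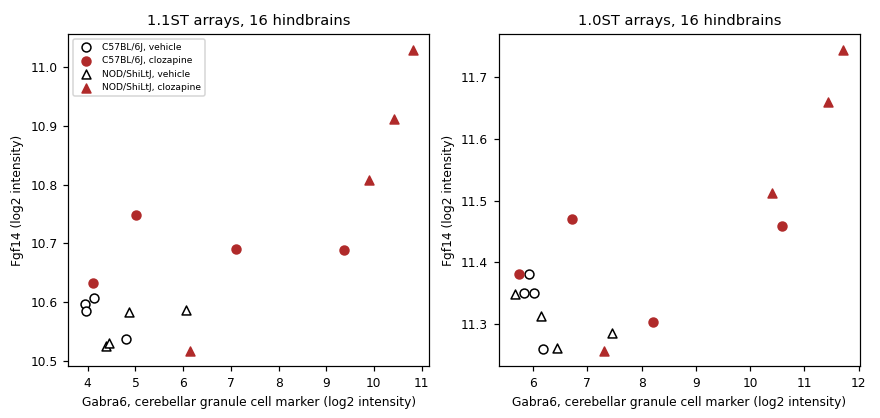
Level of Fgf14 against that of the cerebellar granule cell gene Gabra6, both as RMA log2 intensity, in the 16 hindbrains on 1.1ST (left) and 1.0ST (right); circles are C57BL/6J, triangles NOD/ShiLtJ, red symbols clozapine and open symbols vehicle. The 3 arrays with the highest Fgf14 (10.8 to 11.0 on 1.1ST) are NOD clozapine mice that also have the highest Gabra6 on 1.1ST (9.90 to 10.8).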

How the data were processed

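RNA of 48 brain samples was hybridized to 2 Affymetrix formats. The authors summarized the arrays by RMA in Affymetrix Expression Console 1.1 (per the labels), and the deposited log2 values of 28310 transcript clusters per format were used as given, with no detection calls. Each member was its cluster with 1 gene symbol. Members, gene lists and comparisons were chosen with earlier results of these data known. The 1.1ST values were fitted with limma 3.58.1 in R 4.3.3, with the 6 means of strain and region, the treatment, and the mouse as a random block (consensus correlation 0.0388). A second fit had 12 groups for clozapine within a region. The FDR followed the formula of the methods. The 2 runs of 24 peg arrays are not in the labels, so run was no term, and surrogate variables were an alternative. The fit was tested on simulated data. Genes named from the pathway lists were the 3 called with the largest difference in each direction and every receptor. Pattern likeness used the 3 smallest root mean square differences of centred values for members at or above 0.5. The files give no depth, and precision was taken from the spread between arrays. Promoters came from RefSeq, where 8 members had a window. Array format, block, centring, filter, covariates, arrays and mice left out were varied. The numbers that pair samples mark regions of the same mouse.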

Additional observations from a re-analysis of the deposited data

Results flagged for a closer look

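Of 60 groups of 8 mice (10 members, 2 strains, 3 regions) 3 held a value far from the other 7 by Dixon's ratio of gap to range, and chance flags about 1 group in 20. Fgf1 in NOD whole brain was 9.97 in mouse DD656 against at most 9.51 in the others (ratio 0.654). That array had the lowest telencephalic and the highest brainstem marker level of the whole brains in both formats. Fgf18 in B6 whole brain was 7.53 in mouse BB707 against at most 7.20 in the others (ratio 0.59), and this array had the next lowest telencephalic level (7.96) of the 16. Fgf14 in NOD forebrain was 10.82 in mouse DD657 against at most 10.75 (ratio 0.602), within a group whose whole range ran from 10.70 upward. On 1.0ST the Fgf14 value of DD657 was 11.50, and this group reached 11.57, so DD657 was not the highest there. The part of uneven tissue in these values was not tested.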

How the results depend on the processing

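Of 3500 alternative values of single members, 3418 stayed on their side of the FDR threshold, and 148 of these, none of them called, changed sign. All 10 members stayed called between hindbrain and forebrain on 1.0ST, without any 1 mouse and with no replicate block, and with 1 mixed model per transcript. With surrogate variables Fgf2 (FDR 0.0615) and Fgf14 (FDR 0.0624) were lost. The numbers pair regions of 1 mouse, yet deviations of the same mouse correlated weakly (means 0.0169 to 0.0953), and leaving out the replicate block moved no member count by over 1.5 times (10 members between hindbrain and forebrain, 6 between whole brain and forebrain). Centring each array on its median moved the split of all hindbrain calls from 9382 higher and 9208 lower to 7505 and 15742, turned no member, and moved the receptor list median from 0.03 to -0.04. Strain counts moved in forebrain with residual components (4 members) and in whole brain on 1.0ST (2). In hindbrain they moved on 1.0ST (3) and in vehicle mice (1), where the Fgf13 difference turned from -0.21 to 0.028, and ran from 3 (without mouse BB702) to 6 when 1 mouse was left out. The strain difference changed between hindbrain and forebrain for 1 member, Fgf11, with surrogate variables (1), with residual components (1) and without the 4 hindbrain arrays rich in cerebellar markers (1, chosen after seeing the data). Over all regions clozapine gave 1 member, Fgf14, with residual components. The Fgf14 call in hindbrain was lost (0) on 1.0ST, with surrogate variables, with centred arrays, with the hour of kill and in hindbrain alone. It was also lost without any 1 of 13 of the 16 mice (0 to 1). Without the 4 arrays rich in cerebellar markers only 1 NOD clozapine hindbrain was left, so no call is given. No member had another cluster to try. Counts over all transcripts moved most for clozapine: 632 became 12 with 1 mean per mouse or a mixed model, 129 with the hour of kill, 277 without the 4 arrays, 348 on 1.0ST, 2225 with residual components and 0 in each region fitted alone. In hindbrain 171 became 1 with surrogate variables, 60 with the hour, 0 in hindbrain alone and 1563 with residual components. In whole brain 12 became 0 without the array of DD656 and 1023 with residual components. In forebrain 3 became 52 and 153 with surrogate variables and residual components. For strain in forebrain, whole brain and hindbrain, 3315, 3034 and 4863 became 5499, 4975 and 7521 with residual components and 1786, 1528 and 1932 in vehicle mice. The 313 transcripts whose strain difference changed between hindbrain and forebrain became 742 with surrogate variables, 1071 with residual components and 65 in vehicle mice. Between whole brain and forebrain 5660 became 3318 with surrogate variables, 8674 with residual components, 3619 in vehicle mice, 1832 in B6 and 2029 in NOD. The causes were not tested.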
